A study of Mus musculus with 17 samples.

Results

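The genes described here are the mouse zinc finger protein genes whose symbol is Zfp followed by a number. They were selected on their measured level, a mean FPKM of at least 1 over the 17 libraries with a gene that a library does not list taken as 0. Of 367 such symbols listed in the files, 306 passed this minimum, out of 18836 genes listed in all and 11258 at the same minimum. FPKM is the number of fragments scaled to transcript length and to the number mapped, so it is a level per length. The 2 genes just inside the minimum were Zfp418 and Zfp174, with means of 1.03 and 1.04 FPKM, and the 2 just outside were Zfp109 and Zfp105, with means of 0.983 and 0.963 FPKM.

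The cells were mNRPCs, neural retinal progenitor cells grown from the retina of adult C57BL/6 mice. One library was made at day 0, labelled with no treatment, which the study describes in one place as cells in BM and in another as cells before treatment. One library each was made on days 1, 3, 5 and 7 from cells in basic medium (BM), in BM with bFGF (B), in BM with CHIR99021, an inhibitor of the kinase GSK-3 (C), and in BM with both (BC). No treatment and day had a second library, so every p-value below rests on the departures of the 16 cultured libraries from the fitted model and not on the spread between cultures. Total expected counts, the read numbers assigned to genes, ran from 17571973 to 19428744 a library. Of the retinal progenitor markers, Pax6, Six3, Sox2, Nes and Hes1 were present, Rax was at or near 0 FPKM and Lhx2 reached 2.35 FPKM at most. The summed FPKM of 5 photoreceptor markers stayed at or below 0.93.

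Most Zfp proteins carry C2H2 zinc fingers, small folds held by a zinc ion that each read a few bases of DNA and stand in tandem arrays. Many of these arrays are joined to a KRAB domain, which recruits Trim28 (KAP1) and with it the histone methyltransferase Setdb1 and HP1 proteins (Cbx1, Cbx3, Cbx5) to silence retroelements and imprinted loci. The symbol also covers proteins of other kinds, such as the CCCH finger proteins of the Zfp36 group, which bind AU-rich stretches of mRNA and hand the mRNA to the CCR4-NOT deadenylase. A pattern of the spacing C-X(2-4)-C-X(12)-H-X(3-5)-H was found in the translated coding sequence of 293 of the 304 Zfp genes that could be matched, with a median of 10 fingers and a maximum of 36, and 275 had 3 or more. A KRAB-like stretch was found in 112 by a strict pattern, while the files label 262 of the 306 as KRAB domain-containing zinc finger proteins.

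Zfp genes were lower in the cultures with bFGF from day 3 on, and most of the difference appeared by day 5. The median FPKM of the 306 genes was 3.61 at day 0. In BM it was 4.52, 5.82, 5.38 and 5.72 on days 1, 3, 5 and 7, and in C it was 4.66, 5.99, 5.56 and 5.58. In B it was 4.18, 4.26, 1.63 and 1.79, and in BC it was 4.14, 4.97, 2.17 and 1.68. The 4 bFGF libraries of days 5 and 7 therefore stood below day 0 and below every library without bFGF. In those 4 libraries between 88 and 113 of the genes were under an FPKM of 1, against 0 or 1 gene in the 4 libraries of the same days without bFGF. The share of all expected counts that fell on Zfp genes was 0.954% to 0.974% in the latter and 0.495% to 0.594% in the former. In RNA from whole cultures, fewer cells of a type and less RNA per cell cannot be told apart.

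**Figure D1:**
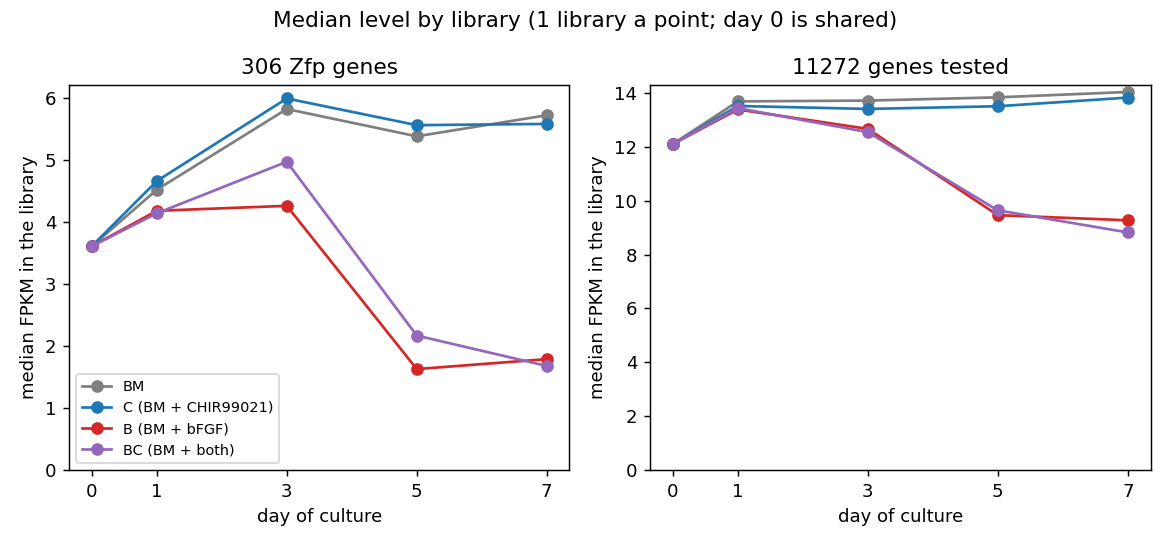
Median FPKM (linear axis from 0) by day of culture, for the 306 Zfp genes on the left and for the 11272 genes tested on the right; each point is 1 library, the colours are the 4 treatments and the day 0 library is drawn once for each. The Zfp median in the B and BC libraries dropped to between 1.63 and 2.17 FPKM on days 5 and 7, while the median of the genes tested went from 13.4 on day 1 to between 8.82 and 9.64.

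The median of the 11272 genes tested also moved, from 13.4 FPKM in both bFGF libraries of day 1 to 9.27 (B) and 8.82 (BC) by the last day, so differences below are given relative to the composition of each library (TMM scaling) unless another scale is named. A value called a bFGF difference is the fitted log2 difference between libraries with and without bFGF, at the same day and CHIR99021 state. Over days 1 to 7, 204 of the 306 Zfp genes (66.7%) were lower with bFGF and 36 (11.8%) were higher by edgeR's quasi-likelihood test at an adjusted p of 0.05, and 66 did not pass. Among all genes tested, 33.9% were lower and 34.6% were higher. The median bFGF difference was -0.70 for the Zfp genes and 0.00 for the genes tested. With library size alone in place of TMM, the median gene moved by -0.29 and the Zfp median was -0.99, with 239 Zfp genes lower and 15 higher against 50.6% and 19.9% of the genes tested. All 204 lower calls and 15 of the 36 higher calls were made on both scales, and none of the other 21 was called lower.

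The minimum level bears on these counts. Of the 306 genes, 37 had a mean FPKM of at least 1 over the 8 libraries without bFGF and under 1 over the 8 with it, and 0 the other way round, so these 37 were bound to differ. Of the other 269, 168 (62.5%) were lower and 36 were higher, with a median of -0.51. When the test was run with no minimum level, 22 of 60 Zfp symbols below the mean of 1 were lower (36.7%) and 5 were higher, against 11.1% and 7.42% of the 7442 genes below that mean.

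The difference was small on day 1 and grew. On day 1, 3 Zfp genes were lower and 6 were higher, against 4.46% and 6.21% of the genes tested (503 and 700 genes). On day 3, 122 were lower and 29 were higher, against 25.0% and 25.4%. On day 5, 224 were lower and 43 were higher, against 38.6% and 37.2%, and on day 7 the numbers were again 224 and 43, against 39.6% and 38.8%. The 2 days shared 211 of their lower Zfp genes, a count for which no share of all genes is given. With library size alone the split was 9 lower and 1 higher on day 1, against 5.97% and 3.39% of the genes tested. The direction of the day 1 calls thus depends on the scale, for all genes tested as for the Zfp genes. On day 7 the split on that scale was 261 lower and 15 higher, against 59.0% and 21.9% of the genes tested. The median bFGF difference of the Zfp genes was -0.03, -0.30, -1.11 and -1.11 on days 1, 3, 5 and 7, and that of the genes tested stayed between -0.02 and 0.04. These models estimate the spread from the CHIR99021 pairs of each day, with a biological coefficient of variation of 10%, against 24.7% in the model over all days, where changes of the bFGF difference with the day add to the spread. The day 1 count is the least firm of these: without the C, B or BC library of day 1 it was 0 in all, and without the B or the BC library of day 3 it was 18 or 19.

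**Figure D2:**
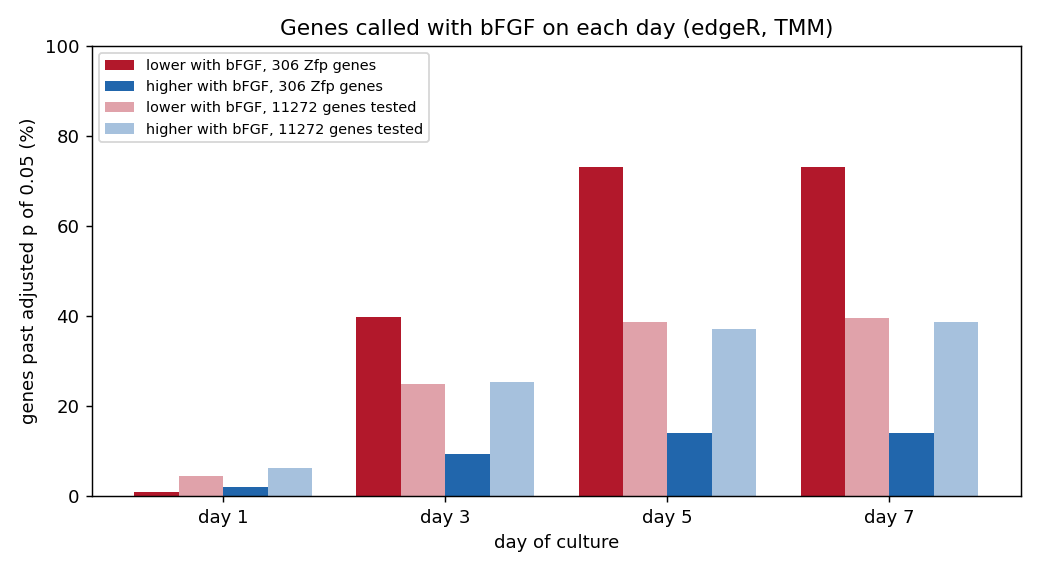
Percent of genes past an adjusted p of 0.05 (edgeR with TMM) for the bFGF difference on each day; dark bars are the 306 Zfp genes, pale bars the 11272 genes tested, red is lower and blue is higher with bFGF. On days 5 and 7 the dark red bars stand at 73.2% and the pale red bars at 38.6% and 39.6%.

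The test of days 3 to 7 together called 233 Zfp genes lower and 47 higher, against 42.5% and 40.8% of the genes tested. The test of the difference itself, days 3 to 7 against day 1, called 202 Zfp genes lower and 23 higher, against 33.2% and 28.9%. In single libraries, 205 Zfp genes (67.0%) had a lower log2(FPKM + 1) with bFGF in all 6 pairs of days 3 to 7 (B with BM, BC with C), as did 42.4% of the genes tested. In all 6 pairs 12 Zfp genes were higher, a count for which no share of all genes is given. For 150 genes every bFGF library of days 3 to 7 lay below every library of those days without bFGF, against 29.7% of the genes tested, and for 5 every one lay above, against 11.9%. The B and BC cultures have separate controls. On day 7, 159 genes were at least 2 times lower on that scale in both pairs, which is 90.9% of those lower in B and 89.3% of those lower in BC. Singly, the pairs had 57.2% and 58.2% of the Zfp genes at least 2 times lower on that day, against 27.9% and 30.0% of the genes tested. On day 3 the shares were 6.21% in the B pair and 1.96% in the BC pair, below the 6.69% and 3.41% of the genes tested.

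Both a rise without bFGF and a fall with it took part over time. From day 1 to day 7 without bFGF, 127 Zfp genes rose and 35 fell, against 32.3% and 31.5% of the genes tested. With bFGF, 38 rose and 195 fell, against 35.8% and 39.5%. Of the Zfp genes 69 rose without bFGF and fell with it, a count for which no share of all genes is given. The rise without bFGF depends on single libraries more than the other results, since without the C library of day 1 the number of Zfp genes changed was 97 and without the BM library of day 7 it was 94, down from 162. Set against the day 0 library, with no test, 3 Zfp genes in BM on day 7 were at least 2 times lower and 51 at least 2 times higher on the log2(FPKM + 1) scale, against 13.0% and 21.1% of 11258 genes. In B on day 7, 96 were lower and 10 were higher, against 23.2% and 11.9%. Once the median gene was set equal 41 were lower, and no share of all genes is given on that scale. On day 1 the numbers were 0 and 6 in BM, against 1.78% and 7.15%, and 1 and 4 in B, against 0.622% and 3.71%.

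The CHIR99021 difference was fitted over all 16 cultured libraries, with and without bFGF. Of 306 genes 0 passed, with a smallest adjusted p of 0.155 and 9 genes at an unadjusted p under 0.05, while 0.284% of the genes tested were lower and 0.0532% were higher. DESeq2 called 2, named after their values were seen, Zfp462 (-0.34 ± 0.10 SE, adjusted p = 0.0261) and Zfp938 (0.32 ± 0.09, adjusted p = 0.0345), and limma called 0. Of all genes tested, DESeq2 called 1.72% lower and 0.772% higher with CHIR99021, more than edgeR did. The fitted CHIR99021 differences lay between -0.34 and 0.60. For the interaction of bFGF and CHIR99021, 0 Zfp genes passed, 1 had an unadjusted p under 0.05 and DESeq2 and limma also called 0, with 0.00887% of the genes tested called (1 gene).

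Several of the largest falls were in genes with few reads in the bFGF libraries of days 5 and 7. Among them, Zfp185, Zfp14, Zfp213, Zfp94 and Zfp810 are in the 37 genes that passed the minimum only through the libraries without bFGF. These genes were thus bound to differ, and their values are given as description. Zfp14 (GRCm38.p6, chr7:30036357-30051396), with 13 fingers and a KRAB-like stretch, was 0.28 FPKM at day 0. It was 0.66, 2.30, 2.73 and 2.73 FPKM in BM and 0.68, 2.15, 2.55 and 2.65 FPKM in C on days 1, 3, 5 and 7. It was 0.39, 0.68, 0.00 and 0.03 FPKM in B and 0.32, 1.08, 0.02 and 0.04 FPKM in BC. The groups do not overlap from day 3 on, and the bFGF libraries of days 5 and 7 held 0 to 3 expected counts against 164 to 175. The bFGF difference was -2.86 ± 0.71 (SE, adjusted p = 0.0036) over all days and -4.80 ± 0.22 over days 3 to 7, sizes that depend on how the fit treats counts near 0.

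Zfp213 (chr17:23556767-23564226), with 5 fingers, was 4.08 FPKM at day 0 and between 2.64 and 4.05 FPKM in the 8 libraries without bFGF. It was 1.96, 0.55, 0.02 and 0.08 FPKM in B and 2.67, 1.16, 0.02 and 0.14 FPKM in BC on days 1, 3, 5 and 7. On day 1 the BC library (2.67) lay within the range without bFGF, and later all bFGF libraries were below it. From day 1 to days 3 to 7 its bFGF difference changed by -4.32 ± 0.35 (SE, adjusted p = 1e-06). With 1 to 7 expected counts in the bFGF libraries of days 5 and 7, this size too depends on the treatment of counts near 0.

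Zfp185 (chrX:72987252-73031543) had the largest fitted fall, and it is a LIM-domain protein associated with actin in which no C2H2 finger was found. It was 0.10 FPKM at day 0, rose in BM through 0.15, 1.40, 3.13 and 3.91 FPKM and in C through 0.21, 1.78, 4.45 and 4.75 FPKM, and stayed between 0.06 and 0.26 FPKM in all 8 bFGF libraries. Its difference of -3.62 ± 0.51 (adjusted p = 0.000184) therefore came from a gain without bFGF, whereas Zfp213, Zfp94 and Zfp764 went below their day 0 level with bFGF. The next falls were Zfp324 (-2.46 ± 0.64, adjusted p = 0.00461), Zfp94 (-2.40 ± 0.72, adjusted p = 0.0103), Zfp764 (-2.24 ± 0.64, adjusted p = 0.0081), Zfp512b (-2.18 ± 0.39, adjusted p = 0.000586) and Zfp810 (-2.09 ± 0.47, adjusted p = 0.00216). Zfp324 and Zfp764 carry 9 fingers each, Zfp94 carries 11 and Zfp810 carries 10, and Zfp324, Zfp764 and Zfp810 have a KRAB-like stretch.

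Fewer genes rose. Zfp367 (chr13:64133022-64153199), with 2 fingers, was 15.79 FPKM at day 0. It went down without bFGF, to 7.64 FPKM in BM and 6.24 FPKM in C on day 7. With bFGF it was 16.23, 11.05, 25.02 and 32.53 FPKM in B and 15.63, 7.48, 17.95 and 25.85 FPKM in BC on days 1, 3, 5 and 7. Only the BC library of day 3 (7.48) overlapped the libraries of days 3 to 7 without bFGF (6.24 to 7.83). The bFGF difference was 1.37 ± 0.31 (adjusted p = 0.00205). Zfp948 (chr17:21565816-21589324), with 15 fingers and a KRAB-like stretch, was between 3.90 and 5.48 FPKM without bFGF and between 6.54 and 13.53 FPKM with it on days 3 to 7 (1.28 ± 0.23, adjusted p = 0.000576). The other large rises were Zfp9 (1.11 ± 0.20), Zfp81 (1.03 ± 0.21), Zfp36l2 (0.93 ± 0.11), Zfp692 (0.79 ± 0.13), Zfp143 (0.65 ± 0.11) and Zfp275 (0.63 ± 0.10), each with an adjusted p of 0.00105 or below and a direction that held with library size alone.

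**Figure D3:**
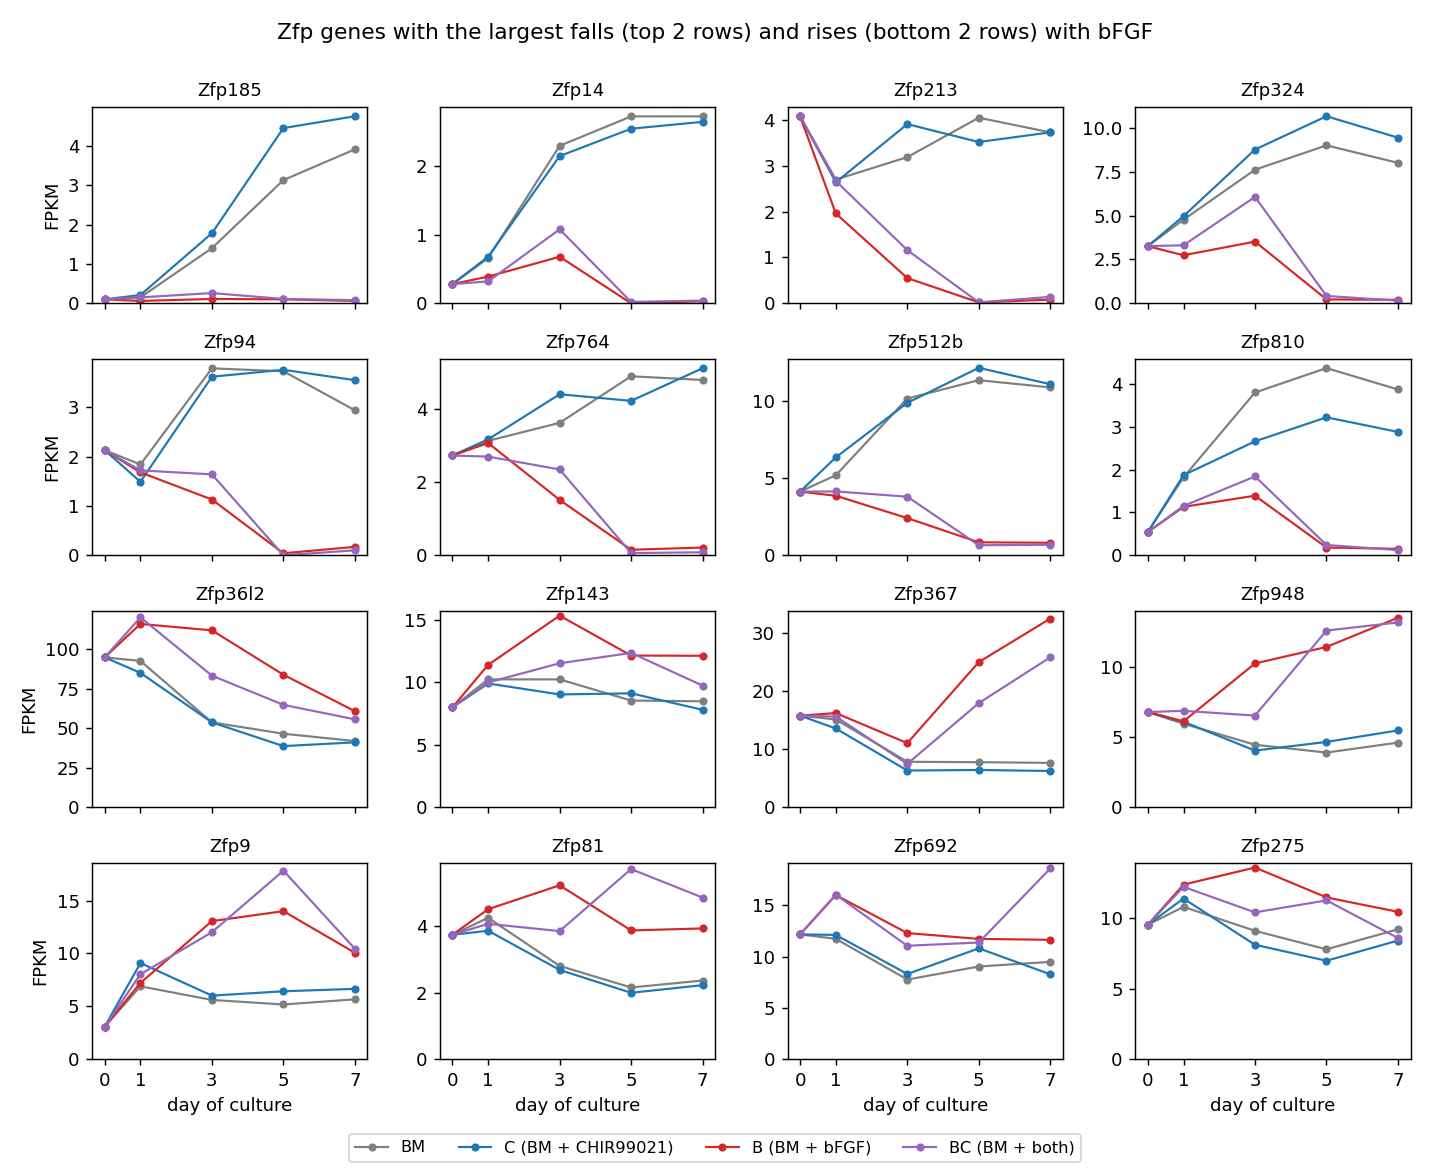
FPKM (linear axes from 0, each gene on its own scale) by day of culture for the 8 largest falls (top rows) and the 8 largest rises (bottom rows) with bFGF; each point is 1 library and the colours are the 4 treatments. The 8 falling genes all end between 0.03 and 0.81 FPKM in the bFGF libraries of day 7, and Zfp367 ends at 32.53 and 25.85 FPKM. Zfp185, Zfp14, Zfp213, Zfp94 and Zfp810 passed the minimum level only through the libraries without bFGF.

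The promoters of the 2 largest falls and the 2 largest rises among genes with fingers are shown so that promoters of genes that went in opposite directions can be set side by side, from 250 bases before to 50 after the start of RefSeq transcripts on GRCm38.p6. Zfp14 is at chr7:30051347-30051646 (minus strand), Zfp213 at chr17:23564177-23564476 (minus), Zfp367 at chr13:64153150-64153449 (minus) and Zfp948 at chr17:21566728-21567027 (plus). For each gene 1 window was kept. The window of Zfp948 lies inside the span of that gene, which begins at 21565816, so it surrounds a start further in. Capitals mark, on either strand, the letters CCGGAAG (an ETS core), CCAAT (the CCAAT box) and GGGCGG (the GC box), which can share letters at their ends.
Zfp14: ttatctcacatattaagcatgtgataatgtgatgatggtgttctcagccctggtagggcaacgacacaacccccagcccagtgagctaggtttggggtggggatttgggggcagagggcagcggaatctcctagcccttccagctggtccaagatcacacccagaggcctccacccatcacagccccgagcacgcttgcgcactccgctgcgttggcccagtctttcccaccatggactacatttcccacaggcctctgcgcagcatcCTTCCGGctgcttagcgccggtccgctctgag
Zfp213: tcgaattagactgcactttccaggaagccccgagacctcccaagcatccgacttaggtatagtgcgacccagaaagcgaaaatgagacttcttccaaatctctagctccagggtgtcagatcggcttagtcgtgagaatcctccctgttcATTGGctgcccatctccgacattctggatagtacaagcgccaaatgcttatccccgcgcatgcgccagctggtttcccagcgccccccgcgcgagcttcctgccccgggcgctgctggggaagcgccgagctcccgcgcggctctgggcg
Zfp367: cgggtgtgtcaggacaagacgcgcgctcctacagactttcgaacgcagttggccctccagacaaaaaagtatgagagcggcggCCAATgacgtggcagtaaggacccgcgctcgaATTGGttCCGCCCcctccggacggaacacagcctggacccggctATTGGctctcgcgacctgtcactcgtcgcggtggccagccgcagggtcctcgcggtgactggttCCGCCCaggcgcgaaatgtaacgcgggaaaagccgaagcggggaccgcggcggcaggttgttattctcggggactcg
Zfp948: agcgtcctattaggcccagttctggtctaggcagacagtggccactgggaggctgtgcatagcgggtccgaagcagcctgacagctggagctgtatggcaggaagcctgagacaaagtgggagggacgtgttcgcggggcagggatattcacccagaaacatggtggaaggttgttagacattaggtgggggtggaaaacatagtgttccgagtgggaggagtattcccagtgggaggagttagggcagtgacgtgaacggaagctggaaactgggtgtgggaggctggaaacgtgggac
Zfp14 has 1 ETS match, Zfp213 has 1 CCAAT match, Zfp367 has 3 CCAAT and 2 GC box matches and Zfp948 has none of the 3. A promoter was found for 257 of the 306 Zfp genes and 9068 of the genes tested. The Zfp promoters had a median GC content of 54.7% and 15 CpG, against 61.3% and 21 CpG for the genes tested. CCAAT was in 49.8% of them (37.9% of all 27025 promoters and 40.0% of those of the genes tested), GGGCGG in 45.1% (35.9% and 66.6%) and CCGGAAG in 22.2% (9.12% and 19.8%). Among the 172 promoters of genes lower with bFGF, the shares were 47.7%, 41.3% and 20.3%, and among the other 85 they were 54.1%, 52.9% and 25.9%. Of 4 rarer motifs, NRF1 was in 8 of the 172 and 2 of the 85, YY1 (AAGATGGCG) in 4 and 4, CRE (TGACGTCA) in 5 and 3, and TCGCGAGA in 0 and 5. They were in 0.977%, 1.49%, 1.88% and 1.08% of all promoters and in 2.22%, 3.53%, 3.47% and 2.55% of those of the genes tested. Of all 257 Zfp promoters they were in 3.89%, 3.11%, 3.11% and 1.95%.

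The share of genes that fell was higher in genes with more fingers. Of 29 Zfp genes with 0 to 2 fingers, 12 were lower (41.4%) and 9 were higher, with a median bFGF difference of -0.05. With 3 to 6 fingers, 25 of 45 were lower (55.6%), with 7 to 10 fingers 58 of 85 (68.2%), and with 11 or more 108 of 145 (74.5%, median -0.88). Genes outside the family with the same finger counts followed a like order, at 32.7%, 39.7%, 52.2% and 64.2% lower. In the 53 of these with 11 or more fingers the median was -0.58. Among Zfp genes with 3 or more fingers, 85 of 111 that matched the KRAB-like pattern were lower (76.6%) and 106 of 164 that did not (64.6%). As the files label 143 of these 164 as KRAB domain-containing zinc finger proteins, this does not compare genes with and without KRAB. These shares are descriptions, and no difference between strata was tested.

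Level and finger count go together here. Of Zfp genes with a mean between 1 and 2 FPKM over the cultured libraries, 50 of 55 were lower (90.9%) and 0 were higher, against 44.3% lower among other genes at that level. This group lies just above the minimum and holds 36 of the 37 genes that passed it only through the libraries without bFGF. Among genes with a mean of at least 1 on both sides, a check added after the data were seen, 15 of 19 Zfp genes of 1 to 2 FPKM were lower (78.9%) against 26.4% of other genes, and 90 of 113 of 2 to 5 FPKM (79.6%) against 44.7%. By finger count, the shares lower on that basis were 39.3%, 51.2%, 64.5% and 70.5%, from the fewest fingers to the most. Between 2 and 5 FPKM 91 of 114 were lower (79.8%, others 46.6%), between 5 and 10 FPKM 34 of 75 (45.3%, others 42.5%), and at 10 FPKM or more 29 of 62 (46.8%, others 25.6%), with 18 higher. Among genes of 7 or more fingers, 124 of 145 were lower under 5 FPKM (85.5%, others 58.6%) and 42 of 85 at 5 FPKM or more (49.4%, others 58.5%). Among genes of 0 to 6 fingers, 16 of 22 were lower under 5 FPKM (72.7%, others 46.3%) and 21 of 52 at 5 FPKM or more (40.4%, others 29.5%). Thus the Zfp genes of 5 to 10 FPKM stood close to other genes of that level. The median transcript of the family was longer than that of the genes tested (3540 against 2820 bases), and over 4 equal groups by length the share lower was 47.4%, 65.8%, 68.1% and 69.5% for Zfp genes and 21.4%, 32.6%, 37.0% and 41.1% for other genes, from the shortest to the longest.

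**Figure D4:**
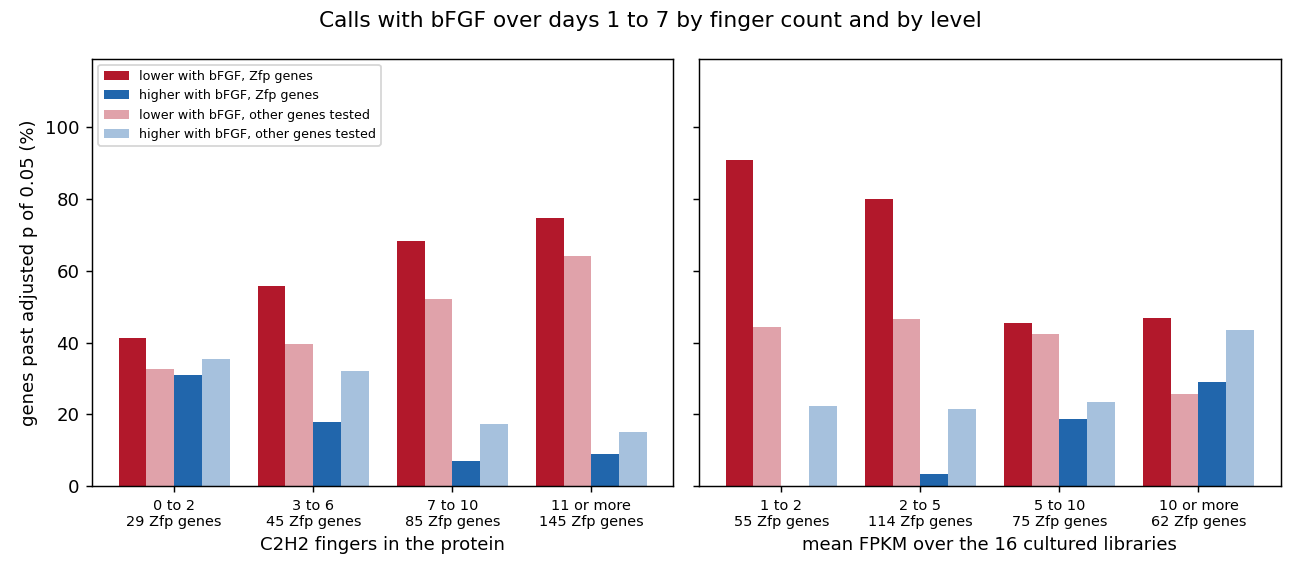
Percent of genes past an adjusted p of 0.05 for the bFGF difference over days 1 to 7, by C2H2 finger count on the left and by mean FPKM on the right; dark bars are Zfp genes, pale bars other genes tested, red is lower and blue is higher with bFGF. The dark red bars go from 41.4% to 74.5% with the finger count and from 90.9% to 46.8% with the level, and the group of 1 to 2 FPKM holds 36 genes that passed the minimum only through the libraries without bFGF.

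Zfp genes lie in tandem runs, and the share that fell differed from run to run. Runs with gaps of at most 1000000 bases and at least 6 members numbered 15 and held 143 of the genes. Of these, 100 were lower (69.9%) over days 1 to 7, against 104 of the 163 elsewhere (63.8%) and 33.9% of the genes tested. The counts by run include genes that passed the minimum only through the libraries without bFGF and so were bound to differ. Zfp708, Zfp14 and Zfp213 are among these, and no count by run was made without them. On chromosome 13 (67069398 to 67827000, 17 genes from Zfp708 to Zfp273), 15 were lower and 0 were higher, and all 17 differences over days 3 to 7 lay between -2.51 and -0.26. On chromosome 7 (29768552 to 30169775, 15 genes that include Zfp14 and Zfp568), 13 were lower and 1 was higher, with Zfp382, named after its value was seen, at 0.88 and Zfp14 at -4.80 over days 3 to 7. On chromosome 17 (21008941 to 23599755, 19 genes), 10 were lower and 2 were higher, and this run holds both Zfp213 (-4.46 over days 3 to 7) and Zfp948 (1.62). Neighbours share sequence, so reads can be split between near-identical copies. Expected counts were whole numbers in 44.7% of the Zfp values and 67.1% of those of other genes tested, and of the 101 Zfp genes with whole counts in all 17 libraries, 60 were lower (59.4%) and 16 were higher, against 31.6% and 36.9% of the 6448 other such genes.

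The 3 CCCH genes that act on AU-rich mRNAs went in different directions. Zfp36l2, the most abundant Zfp gene, was 94.84 FPKM at day 0, 92.61, 53.68, 46.51 and 41.87 FPKM in BM on days 1, 3, 5 and 7 and 116.03, 111.96, 83.84 and 60.77 FPKM in B. It was 85.04, 53.69, 38.68 and 41.05 FPKM in C and 120.18, 83.29, 64.79 and 55.63 FPKM in BC. It fell from day 1 to day 7 both without bFGF (-1.12 ± 0.13) and with it (-0.59 ± 0.12) and was higher with bFGF in all 8 pairs, from day 1 on (0.50 on day 1, adjusted p = 0.0257). Zfp36l1 went from 12.57 FPKM at day 0 to 123.99 FPKM in BM and 95.77 FPKM in C on day 3, was lower with bFGF in all 8 pairs and had a difference of -0.59 ± 0.17 (adjusted p = 0.00786). Zfp36 (tristetraprolin) was higher over all days (0.51 ± 0.18, adjusted p = 0.0211) but in only 6 of 8 pairs, and its call was lost with library size alone (0.23) and without the BM or the C library of day 7. Of 15 genes of the CCR4-NOT and decapping machinery, 5 were higher and 4 were lower (33.3% and 26.7%, close to the shares of all genes tested), and with library size alone 0 were higher and 8 were lower. Xrn1, the 5′ to 3′ exonuclease, was lower (-0.63 ± 0.14, adjusted p = 0.0022), and Cnot1, the scaffold of CCR4-NOT, was higher on the TMM scale (0.28 ± 0.08, adjusted p = 0.0111) but not with library size alone (-0.01).

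Of 6 genes known to silence imprinted loci or retroelements, 5 fell and 1 rose, against 33.9% lower and 34.6% higher among the genes tested. Zfp568, a KRAB repressor of a placental Igf2 promoter, was between 5.46 and 7.23 FPKM without bFGF on days 3 to 7 and between 0.60 and 2.83 FPKM with it (-1.46 ± 0.28, adjusted p = 0.000835). Zfp809, which silences murine leukaemia proviruses, was between 6.42 and 8.24 FPKM without bFGF and went to 1.51 FPKM in B and BC on day 5 (-0.99 ± 0.25, adjusted p = 0.00383). Zfp932 (-1.36 ± 0.06 over days 3 to 7), Zfp708 (-1.13 ± 0.23) and Zfp445 (-0.36 ± 0.11), the last of which keeps imprints together with Zfp57, were also lower, with adjusted p of 0.0111 or below. Zfp445 did not pass once the length trend was removed (-0.17). Zfp708 passed the minimum level only through the libraries without bFGF and so was bound to differ. Zfp57 was higher over all days (0.57 ± 0.13, adjusted p = 0.00181), though on day 5 it was 6.09 FPKM in B and 6.63 in BM and 6.50 in BC and 6.96 in C, and its call was lost with library size alone (0.28).

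The partners of KRAB proteins gave a count that depends on the scale. Of 14 corepressor genes, 7 were higher and 3 were lower over days 1 to 7 (34.6% and 33.9% of the genes tested), and with library size alone 3 were higher and 6 were lower (19.9% and 50.6% of the genes tested). Day 7 levels of Trim28 were 104.84 FPKM (BM), 109.66 (C), 93.10 (B) and 98.29 (BC), which is higher with bFGF on the TMM scale over all days (0.26 ± 0.08, adjusted p = 0.0079) and not with library size alone (-0.03). Setdb1, in the same order, was 20.92, 20.64, 6.44 and 9.40 FPKM and did not pass over all days (-0.27 ± 0.13, adjusted p = 0.0733), but it was lower on days 3 to 7 (-0.40 ± 0.08, adjusted p = 0.000272) and over all days with library size alone (-0.56). Uhrf1, which guides Dnmt1 to newly copied DNA, was 8.93, 7.90, 27.50 and 31.58 FPKM (1.75 ± 0.27, adjusted p = 0.000293), higher on both scales. The 3 genes lower on the TMM scale, named after their values were seen, were Hdac1 (-0.46), Chd4 (-0.30) and Smarcad1 (-0.64).

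Of 7 genes of RNA, ribosome and spindle function, 3 were higher and 2 were lower (34.6% and 33.9% of the genes tested). With library size alone 1 was higher and 3 were lower (19.9% and 50.6% of the genes tested). Zfp598, an E3 ligase that marks stalled ribosomes, was higher (0.52 ± 0.13, adjusted p = 0.00335), as was Zfp622, a maturation factor of the large ribosomal subunit (0.44 ± 0.12, adjusted p = 0.00752, lost with library size alone at 0.15). Zfp207 (BuGZ), a spindle and kinetochore protein, ranged from 40.70 to 57.69 FPKM over the cultured libraries, and its call (0.32 ± 0.10, adjusted p = 0.0132) was also lost with library size alone (0.03). Zfp593, which acts in maturation of the large subunit, was 33.45 FPKM in BM and 38.53 FPKM in C on day 7 against 10.85 in B and 12.51 in BC (-0.60 ± 0.18, adjusted p = 0.00956), but on day 1 it was higher with bFGF (0.39, adjusted p = 0.034). Zfp638 was lower (-0.75 ± 0.18, adjusted p = 0.00295, and -0.99 ± 0.07 over days 3 to 7). Zfp106 (-0.02 ± 0.09) and Zfp326 (-0.26 ± 0.13, adjusted p = 0.0785) did not pass over all days. Zfp326 was lower on days 3 to 7 (-0.31 ± 0.07, adjusted p = 0.00142) and over all days with library size alone (-0.55), and it also passed without the BM, the C or the B library of day 7.

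Among genes with roles in neural or progenitor cells, 3 of 5 measured fell, against 33.9% of the genes tested. Zfp536, a repressor of neuronal differentiation genes, was 1.43 FPKM at day 0. It was 5.59, 16.07, 16.10 and 12.26 FPKM in BM and 4.34, 4.37, 3.21 and 2.71 FPKM in B on days 1, 3, 5 and 7. In C it was 8.06, 16.98, 17.94 and 14.22 FPKM and in BC it was 4.72, 5.25, 3.14 and 2.32 FPKM. Every bFGF library was below every library without bFGF, and the difference was -1.69 ± 0.21 (adjusted p = 9.5e-05). Zfp503 (Nlz2), needed for closure of the optic fissure, was 9.74 and 10.76 FPKM in BM and C on day 7 against 1.21 and 1.47 FPKM in B and BC (-1.01 ± 0.32, adjusted p = 0.0137), but its BC library of day 3 (14.46 FPKM) was its highest value. Its paralogue Zfp703 went to between 3.00 and 4.47 FPKM with bFGF on days 5 and 7, against 17.73 to 19.79 FPKM without. Its call over all days (-0.80 ± 0.33, adjusted p = 0.0444) was lost in 9 of the 16 fits that leave out 1 library, namely those without the B library of day 3 or any library of day 5 or day 7, and when the length trend was removed (-0.68). Zfp335 (0.30 ± 0.06) and Zfp462 (0.41 ± 0.09) passed as higher, but Zfp335 was higher in only 4 of 8 pairs of FPKM and Zfp462 in 6, and neither passed with library size alone (0.01 and 0.12). Zfp42, Zfp423, Zfp521 and Zfp804a, which were on the same lists, were below the minimum level.

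Of the general and pluripotency-linked factors, Zfp143, which binds many promoters, rose as given above. Zfp410, known to activate Chd4, was lower in all 8 pairs (-0.25 ± 0.09, adjusted p = 0.0197), by less than the family median and not past the threshold with the length trend removed (-0.18). Zfp148 (0.12 ± 0.06), Zfp217 (-0.22 ± 0.18) and Zfp281 (0.27 ± 0.12) did not pass over all days, with adjusted p of 0.108, 0.277 and 0.0583, though Zfp281 did pass without the BM library of day 1 or the B library of day 7. On days 3 to 7 all 3 passed, Zfp148 at 0.11 ± 0.04 (adjusted p = 0.0252), Zfp217 at -0.32 ± 0.08 (adjusted p = 0.00232) and Zfp281 at 0.37 ± 0.11 (adjusted p = 0.00708), while over all days with library size alone Zfp148 was -0.17 and Zfp281 -0.01. Zfp740, among the 5 most abundant members, did not pass (-0.02 ± 0.07, adjusted p = 0.806).

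Other zinc finger families gave a mixed count. Of 17 Zscan and Zkscan genes 14 were lower (82.4%, median -0.82), of 38 Zbtb genes 15 were lower and 10 higher (39.5% lower, median -0.14), and of 15 Zc3h genes, which bind RNA, 7 were lower and 5 higher (median -0.01). Among all genes tested 33.9% were lower and 34.6% were higher. Of 177 other genes with 3 or more fingers, 89 were lower (50.3%) and 41 were higher, with a median of -0.36. The differences between these families and the Zfp genes were not tested.

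To see how much of the lower share of transcription regulators the family holds, the transcription terms that the files give each gene were counted with and without it. The term regulation of transcription, DNA-templated held 694 genes tested, of which 282 were lower with bFGF over days 1 to 7 (40.6%) against 33.9% of all genes. Its 143 Zfp genes held 100 of these (69.9% lower), 35.5% of the lower genes of the term. Without them, 182 of 551 were lower (33.0%) and 195 were higher (35.4%), with a median difference of 0.01. Without the other genes of 3 or more fingers as well, 149 of 490 were lower (30.4%). As the Zfp genes of the term were mostly lower, taking them out was bound to reduce its share. The terms were not counted without the Zfp genes that passed the minimum only through the libraries without bFGF. The shorter term transcription, DNA-templated held 55 Zfp genes among 910 and had 33.4% lower with them and 31.3% without. Over both terms 344 of 1062 other genes were lower (32.4%, 95% exact binomial interval 29.6% to 35.3%, counting error only). On days 3 to 7 the first term had 51.0% lower with its Zfp genes and 43.2% without, against 42.5% of all genes. Only 160 of the 306 Zfp genes carry either term, and 123 carry no biological process in the files.

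**Figure D5:**
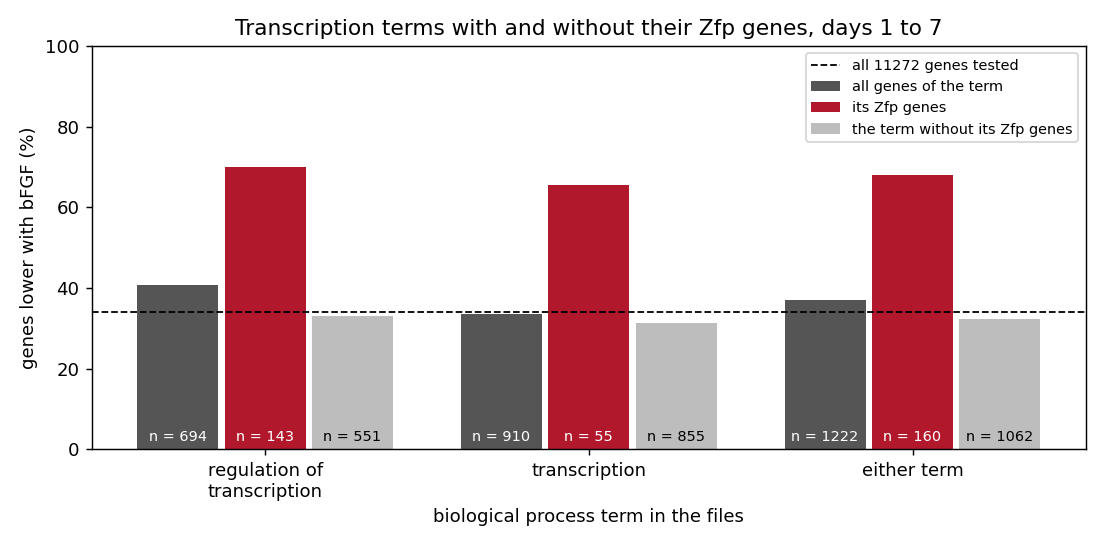
Percent of genes lower with bFGF over days 1 to 7 (edgeR, adjusted p of 0.05; axis from 0) for the genes of 2 transcription terms and of either term, for their Zfp genes, and for the terms without their Zfp genes, with the number of genes written in each bar; the dashed line is the share of all 11272 genes tested, 33.9%. Without the Zfp genes the bars stand at 33.0%, 31.3% and 32.4%.

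Markers of other cells moved in the same libraries. The summed FPKM of 4 fibroblast and pericyte markers was 4.11 at day 0, between 14.98 and 159.43 in the libraries without bFGF and between 6.05 and 34.35 in those with it, and all 3 of them that were tested were lower with bFGF. Pdgfrb reached 114.64 FPKM in BM on day 7 against 5.25 FPKM in B, and Col1a1 reached 45.19 FPKM in C against 0.25 FPKM in BC. The progenitor marker Pax6 moved too, at 164.73 and 152.42 FPKM in BM and C on day 7 against 10.71 and 16.48 FPKM in B and BC (-1.94 ± 0.27, adjusted p = 0.000148). The sums of 4 microglial, 4 endothelial and 4 pigment epithelium markers stayed at or below 2.48 FPKM. The sum of 5 markers of Mueller glia and astrocytes was between 12.98 and 32.73 FPKM, nearly all of it Glul (glutamine synthetase), which was higher with bFGF (0.70 ± 0.11, adjusted p = 0.000288). Aqp4, below the minimum level, went the other way, at 1.53 and 1.44 FPKM in BM and C on day 7 against 0.03 and 0.02 FPKM in B and BC. Rlbp1, Slc1a3 and Gfap were at or below 0.13 FPKM. The part of these in the Zfp differences was not tested.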

How the data were processed

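RNA of cultured mNRPCs was sequenced on the BGISEQ-500 after poly-A selection. The authors mapped reads with Bowtie 2 to the mouse genome (mm10 per the submitters' processing notes, which also name RSEM, while the methods name eXpress), and the versions are not given in the sources used here. The authors deposited, per gene and library, an expected count and an FPKM value. Only transcript lengths and gene annotations were used besides these. Genes under a mean FPKM of 1 over the 16 cultured libraries were not tested. The Zfp genes, gene lists and strata were chosen with earlier results of these data known.

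Expected counts were rounded and tested in the 16 cultured libraries with edgeR 4.0.16 in R 4.3.3 (TMM, glmQLFit and glmQLFTest, Benjamini-Hochberg adjustment over 11272 genes, threshold 0.05). The models were day, bFGF and CHIR99021, the same with their interaction, and CHIR99021 with bFGF within each day. On simulated data of 11272 genes with 200 changed genes, the first model recovered 96% of changes of 1 and 100% of changes of 2 on the log2 scale for bFGF, with 10 false calls. In the cultured libraries the same model called 3817 genes lower and 3896 higher with bFGF. Its recovery with that many changed genes was not tested. Named genes were the members of role lists, the 8 largest falls and rises that held in all 6 pairs of days 3 to 7, the 5 highest levels, the 2 genes on each side of the minimum, the 3 largest changes of the bFGF difference with the day and up to 3 CHIR99021 calls in each direction, and up to 4 examples of each partner list. Fingers were counted in GENCODE M21 coding sequences matched by Entrez ID, and positions and promoters came from RefSeq (GRCm38.p6, the same assembly as mm10). Alternatives were library size alone, median-gene scaling, DESeq2 1.42.0, limma 3.58.1 on log2(FPKM + 1) or log2(FPKM + 0.1), other minimum levels, removal of each library's trend on length, and leaving out day 1 or each library. Strata of genes above the minimum on both sides, and list counts with library size alone, were added after the data were seen. With 1 library of a treatment and day, depth does not set the precision, the departures from the models do.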

Additional observations from a re-analysis of the deposited data

Results flagged for a closer look

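The bFGF difference changed between day 1 and days 3 to 7 by the test of the change itself (edgeR, adjusted p under 0.05) in 225 Zfp genes. Among the genes named here it went down, on the log2 scale, by the following amounts. In the large falls the change was -3.69 in Zfp185, -3.97 in Zfp14, -4.32 in Zfp213, -2.80 in Zfp324, -4.27 in Zfp94, -3.40 in Zfp764, -2.37 in Zfp512b and -2.23 in Zfp810. In genes of silencing it was -0.51 in Zfp445, -1.93 in Zfp568, -1.15 in Zfp708, -1.14 in Zfp809 and -1.40 in Zfp932. In genes of RNA and ribosome function it was -0.42 in Zfp106, -1.31 in Zfp593 and -0.92 in Zfp638. In neural and general factors it was -1.40 in Zfp503, -1.56 in Zfp536, -1.73 in Zfp703 and -0.36 in Zfp410, and at the edge of the minimum level it was -2.08 in Zfp418 and -1.18 in Zfp174. Zfp185, Zfp14, Zfp213, Zfp94, Zfp810, Zfp708, Zfp418 and Zfp174 passed the minimum level only through the libraries without bFGF.

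It went up by 0.58 in Zfp36l2, 0.48 in Zfp207, 0.65 in Zfp143, 1.51 in Zfp367, 1.42 in Zfp948, 1.44 in Zfp9, 1.16 in Zfp81 and 0.53 in Zfp275. Zfp593 and Zfp703 were above 0 on day 1 (0.39 and 0.48, the latter with an adjusted p of 0.066) and below 0 on days 3 to 7 (-0.92 and -1.25). No treatment and day had more than 1 library, so no library could be set against others of its own group.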

How the results depend on the processing

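The count of Zfp genes lower with bFGF over days 1 to 7 (204) was within 1.5 times under every alternative except a minimum mean FPKM of 5, under which 137 of the genes were tested and 73 were lower. With that minimum the counts were also smaller for days 3 to 7 (83 lower) and for the change of the bFGF difference (87). From day 1 to day 7 they were smaller without bFGF (75) and with it (107). Fewer genes were tested, and the shares moved too. Over days 1 to 7, 53.3% of these Zfp genes were lower and 21.9% higher, against 34.6% and 33.9% of the genes tested. Their median bFGF difference was -0.30. On days 3 to 7, 60.6% were lower, against 43.0% of the genes tested. Scaling set the number of higher calls. It was 15 over all days with library size alone and with limma on unscaled FPKM at either pseudocount, and 24, 22 and 21 on days 3 to 7. The cause of the 2 CHIR99021 calls of DESeq2 was not tested. The percent lower in the transcription terms without Zfp genes was 50.3, 49.1 and 49.6 in the unscaled fits (50.6 for all genes with library size alone). It was 25.5 with no minimum level (all genes 23.8), 26.8 with the length trend removed (all genes 31.3) and 36.1 without day 1 (all genes 36.9). In B on day 7, 152 genes were at least 2 times below day 0 with a pseudocount of 0.1 and 41 once the median gene was set equal, against 96. No share of all genes is given on those other scales.

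The sign of 4 genes that did not pass was not fixed. Zfp148 was -0.17, -0.14 and -0.15 and Zfp281 was -0.01, -0.02 and -0.03 in the unscaled fits. Zfp106 was 0.01 with the median gene set equal and 0.18 without the length trend, where Zfp740 was 0.00 and 0.14. Leaving out 1 library at a time, the number lower was 186 to 214 and higher 33 to 41, and on days 3 to 7 it was 228 to 235 and 43 to 51. On day 1 it was 0 to 19, for the change of the difference 199 to 234, from day 1 to day 7 94 to 170 without bFGF and 221 to 239 with it, the median -0.77 to -0.59 and the percent of transcription genes 27.8 to 34.3. CHIR99021 and the interaction gave 0 calls in each of these. A fit that leaves out 1 library of a day treats the lone library left as varying like the others. What the depth allows was not a limit at the level of the family, but single genes near 0 counts have no reliable fold.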
